A study of Mus musculus with 6 samples.

Results

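Histone variants are histones encoded by single genes outside the clustered replication-coupled histone genes, and they replace the canonical histones at particular places in chromatin. H2A.Z (genes H2az1 and H2az2) is placed at promoters by the SRCAP and EP400 remodelling complexes. H3.3 (H3f3a and H3f3b) is deposited independently of DNA replication by HIRA and by DAXX with ATRX. H2A.X (H2ax) is the form that is phosphorylated around DNA double-strand breaks. The macroH2A proteins (Macroh2a1 and Macroh2a2) carry a large extra domain and are known from silent chromatin such as the inactive X chromosome, and H1.0 (H1f0) is the linker histone that accumulates in cells that have stopped dividing. In myoblasts, H3.3 deposition at muscle genes and a macroH2A1 splice form are known to take part in muscle gene activation.

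The 8 histone variant genes H2ax, H2az1, H2az2, H1f0, H3f3a, H3f3b, Macroh2a1 and Macroh2a2 were chosen by name, and their probe sets were those for which the platform annotation gives that gene as the only symbol. This left 9 probe sets of 7 genes, out of 45037 probe sets tested; H1f0 had none. RNA came from C2C12 cells, an established mouse myoblast line, plated at 1500 cells per square centimetre in medium with 10% newborn calf serum and, from 1 day later, either left untreated or given 10 µM 5-azacytidine (5AC) for 3 days. 5AC is a cytidine analogue that is built into RNA and DNA and traps DNA methyltransferases. Total RNA of day 3, from subconfluent cultures, was read on 6 Affymetrix Mouse Genome 430 2.0 arrays, 3 untreated and 3 5AC. Whether the arrays of a group came from separate cultures is not stated in the labels; the p-values then cover only the scatter among these arrays, part or all of which may be technical. The median deposited intensity (a linear brightness value with no physical unit) was 20.3 to 21.0 per array, so the arrays were at a similar level, and the number of arrays limits the precision.

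The cells carried the markers of the line. Myod1, the myogenic master regulator, was at 507.6 ± 33.8 untreated and 348.7 ± 17.1 in 5AC (mean intensity ± SD, n = 3 each), and Des, the muscle intermediate filament, at 1041 ± 43.6 and 887.0 ± 19.2. Myf5, the other early myogenic factor, was at 508.3 ± 29.2 and 429.0 ± 49.1. Myod1 was lower in 5AC (log2 change -0.54, Benjamini-Hochberg adjusted p = 0.0147, limma), while Des and Myf5 were not past the threshold. The 4 macrophage and leukocyte markers together summed to 115 to 136 on the untreated arrays and 118 to 137 on the 5AC arrays, and the 3 endothelial, 2 adipocyte and 2 epithelial markers examined lay between 0.24 and 46.7 on every array, with 0 of these 11 past the threshold in either direction (limma; also 0 at an unadjusted p under 0.05).

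H2A.X and H2A.Z RNA fell in 5AC. Of the 9 probe sets, 6 were lower in 5AC, 0 higher and 3 not past the threshold (limma, Benjamini-Hochberg adjusted p under 0.05 over all probe sets); among all probe sets 8.75% were lower and 8.15% higher, and among those brighter than the median probe set, as all 6 were, 15.7% were lower. With single arrays left out 5 or 6 of the 9 were lower, while the number over all probe sets, 3942, shrank to between 2058 (without untreated replicate 2) and 2592 (without untreated replicate 3). At an unadjusted p under 0.05 the counts were also 6 lower and 0 higher. The 6 belong to 4 genes, H2ax, H2az1, H2az2 and Macroh2a1. The median log2 change of the 9 was -0.72, against -0.01 for all probe sets. The H3f3a, H3f3b and Macroh2a2 probe sets, with mean intensities from 8.67 to 40.2, are the 3 that did not pass. In an array of bulk RNA, fewer cells that carry a transcript and less of it per cell cannot be told apart.

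**Figure D1:**
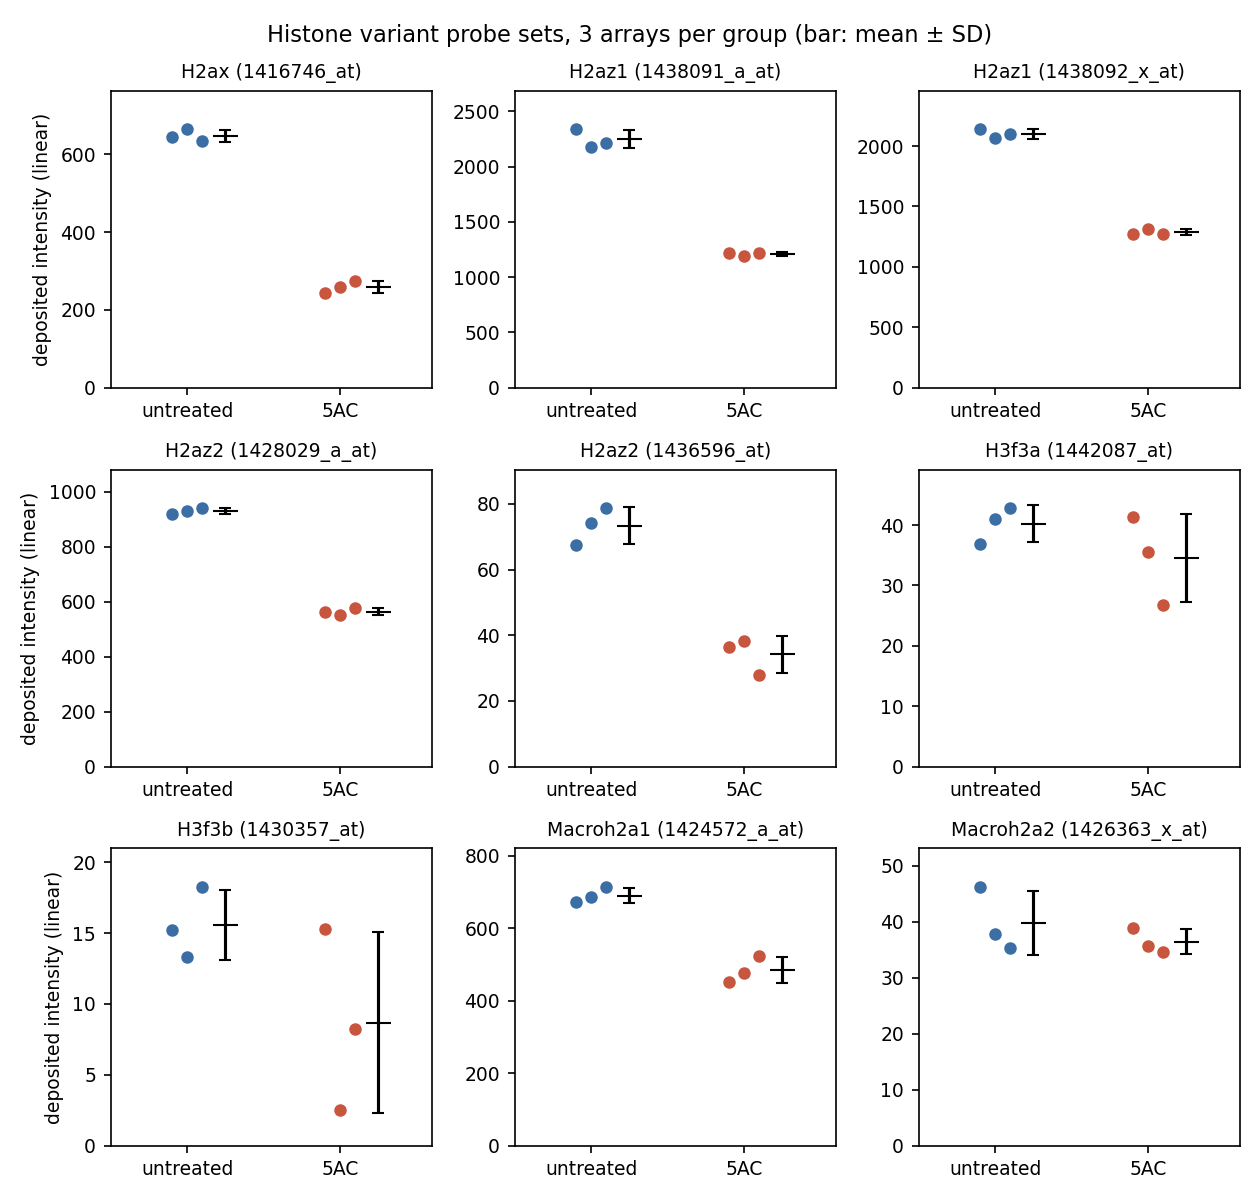
Deposited intensity (linear, each panel from 0) of the 9 probe sets on the 3 untreated (blue) and 3 5AC (red) arrays; bars are mean ± SD. The groups are separate for H2ax, both H2az1, both H2az2 and the Macroh2a1 probe sets and overlap for H3f3a, H3f3b and Macroh2a2.

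RefSeq promoter sequences (build GRCm38.p6) were at hand for 7 of the 8 genes; H2ax was not among them. The promoters of the 3 other genes that fell are shown because these genes were lower together. Each stretch ends before the gene's outermost RefSeq start and reads along the gene's strand; capitals mark CCAAT on either strand (ATTGG on the reverse), the core letters of the CCAAT box bound by NF-Y.
H2az1 chr3:137864237-137864486 (+): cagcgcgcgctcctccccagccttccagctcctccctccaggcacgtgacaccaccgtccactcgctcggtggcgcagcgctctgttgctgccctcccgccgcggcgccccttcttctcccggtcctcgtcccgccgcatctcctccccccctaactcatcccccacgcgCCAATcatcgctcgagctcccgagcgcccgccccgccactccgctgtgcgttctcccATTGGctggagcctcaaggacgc
H2az2 chr11:6444512-6444693 (-): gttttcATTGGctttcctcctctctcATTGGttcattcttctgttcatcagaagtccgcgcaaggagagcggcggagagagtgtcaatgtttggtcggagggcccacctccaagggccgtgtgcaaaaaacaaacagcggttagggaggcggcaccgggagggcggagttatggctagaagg
Macroh2a1 chr13:56135627-56135800 (-): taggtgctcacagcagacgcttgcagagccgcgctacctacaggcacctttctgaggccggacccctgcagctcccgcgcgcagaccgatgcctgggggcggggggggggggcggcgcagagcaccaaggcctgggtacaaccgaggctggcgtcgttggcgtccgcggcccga

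The 2 H2A.Z stretches each hold 2 CCAAT matches and the Macroh2a1 stretch holds 0. Over the full window of 300 bases around the listed start, H2az1 has 3 matches and H2az2 has 4. H3f3b also has 4, but its probe set was too dim to tell a change from the spread. The full windows of Macroh2a1 and H1f0 hold 0 matches, and those of H3f3a and Macroh2a2 hold 1 each. Of the 32851 RefSeq promoter windows of that length, 3.37% have 3 or more matches and 37.4% have any. The cell cycle element CHR, searched as TTTGAA on both strands, was found once in the H2az2 window and in 17.9% of all windows, and the E2F words TTTCCCGC, TTTGGCGC, TTTCGCGC and TTTGCCGC in none of the 7 windows and 2.26% of all. CpG dinucleotides number 34 in the H2az1 window, 27 in that of H2az2 and 37 in that of Macroh2a1, with a median of 7 over all windows. The ratio of observed to expected CpG is 0.98 for H2az1, 1.01 for H2az2 and 0.93 for Macroh2a1. It is 1.06 for both H3f3a and H3f3b, 0.72 for Macroh2a2 and 0.70 for H1f0, against a median of 0.38. The H3f3a, H3f3b and Macroh2a2 probe sets were dim and H1f0 had none, so a link of CpG density to the changes was not tested. These matches describe the letters of the windows only.

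H2ax, the variant phosphorylated at DNA breaks, had the largest decrease among the variant probe sets past the threshold. Its probe set (1416746_at) read 643.3, 664.2 and 633.2 on the untreated arrays and 244.1, 260.0 and 273.7 on the 5AC arrays. All 3 treated arrays were far below all 3 untreated ones, which lay within a narrow band. The mean went from 646.9 ± 15.8 to 259.3 ± 14.8, 59.9% lower, a log2 change of -1.32 ± 0.08 (SE; adjusted p = 0.00166 by limma). Only 1.41% of all probe sets had a larger decrease. Groups that do not overlap in this direction were seen for 6 of the 9 probe sets and for 18.5% of all probe sets.

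The genes whose pattern over the 6 arrays was most like that of H2ax were found among the brightest probe sets of 6956 genes with a mean intensity of at least 100, by the root mean square difference of centred log2 values. They were Cdk2ap2, named for its kinship to a CDK2-associated protein, at a distance of 0.020, Mmd at 0.037 and the sterol synthesis enzyme gene Msmo1 at 0.040. Cdk2ap2 went from 688.0 ± 21.0 to 274.4 ± 14.6, Mmd from 1714 ± 23.6 to 676.3 ± 29.8 and Msmo1 from 1068 ± 28.5 to 416.3 ± 25.5. With 6 arrays in 2 groups this likeness is mostly the shared size of the drop.

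Both H2A.Z genes were lower in 5AC with each of their probe sets. H2az1 probe set 1438091_a_at read 2339, 2183 and 2219 untreated and 1220, 1190 and 1218 in 5AC, and the groups did not overlap. Its mean was 46.2% lower, a log2 change of -0.89 ± 0.07 (adjusted p = 0.00262, limma). The second H2az1 probe set, 1438092_x_at, whose suffix marks probes that may also bind similar sequences, read 2139, 2064 and 2096 against 1276, 1313 and 1275. Here too every treated array was below every untreated one, by a smaller margin, with a mean 38.7% lower and a log2 change of -0.70 ± 0.06 (adjusted p = 0.00369, limma).

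H2az2 encodes an H2A.Z protein that differs from that of H2az1 at only a few residues. Its brighter probe set, 1428029_a_at, read 919.6, 929.3 and 940.7 untreated and 563.9, 553.4 and 577.0 in 5AC. The spread within each group was small next to the gap between them, and the mean was 39.3% lower, a log2 change of -0.72 ± 0.06 (adjusted p = 0.00351, limma). The dimmer probe set, 1436596_at, read 67.4, 74.1 and 78.7 against 36.5, 38.1 and 27.8. Its groups also stood apart, and its log2 change of -1.09 ± 0.15 (adjusted p = 0.00953, limma) was -0.84 with 16 instead of 1 added before the log, an offset that damps the changes of dim probe sets.

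**Figure D2:**
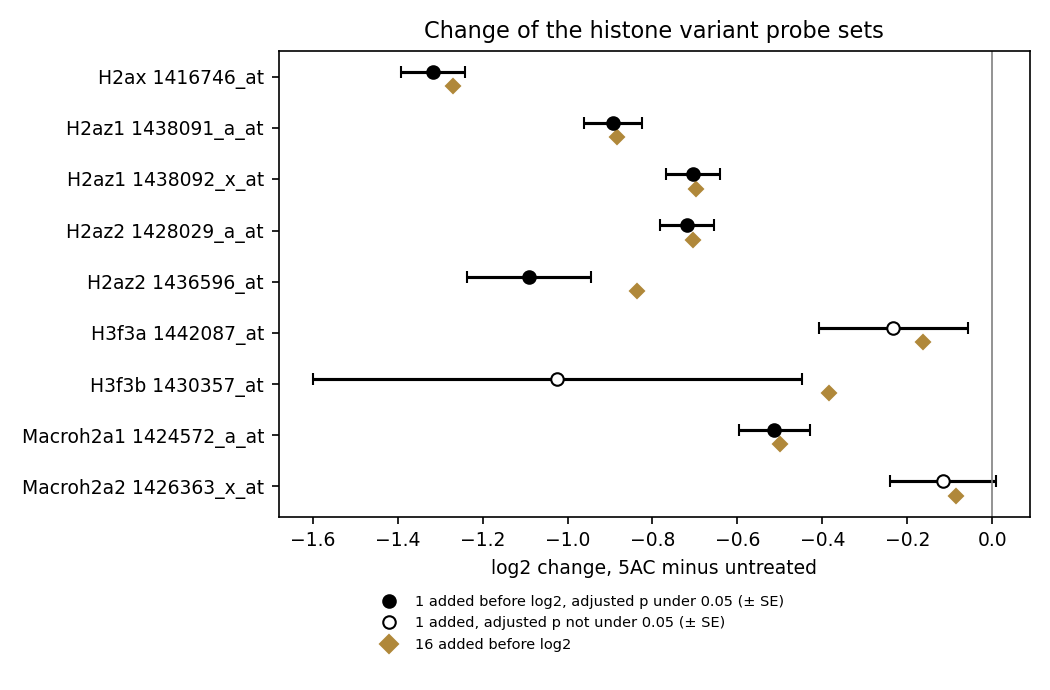
Log2 change, 5AC minus untreated, of each probe set with 1 added before the log (circles, ± SE, filled where adjusted p is under 0.05) and with 16 added (diamonds). H2ax lies farthest to the left among filled circles at -1.32, and the unfilled H3f3b circle moves from -1.02 to -0.39 between the offsets.

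The H2A.Z genes were compared with each other by the within-array difference of the log2 values of their brighter probe sets. This difference, H2az1 minus H2az2, was 1.35, 1.23 and 1.24 on the untreated arrays and 1.11, 1.10 and 1.08 on the 5AC arrays. The treated values were all below the untreated ones, so on these probe sets H2az1 fell by more, with a change in the difference of -0.17 ± 0.04 (SE). An exact two-sided permutation test gave p = 0.10, the smallest that 3 arrays against 3 allow, and 0.20 after Benjamini-Hochberg adjustment over the 3 paralogue pairs. The order depends on the probe sets chosen: the dimmer H2az2 probe set fell by more than either H2az1 probe set with 1 added before the log, and with 16 added its -0.84 lay between their -0.88 and -0.70. The 2 probe sets of H2az1 differed from each other by -0.19 in their change and those of H2az2 by 0.37, amounts at least as large as the difference between the genes. The 2 probe sets that list H2az1 with Gm8203 fell by less than either H2az2 probe set, with log2 changes of -0.47 and -0.44. They cannot be given to H2az1 alone.

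The H3.3 genes were nearly out of reach of probe sets of their own. H3f3a probe set 1442087_at read 36.9, 41.1 and 42.8 untreated and 41.3, 35.5 and 26.8 in 5AC, with overlapping groups and a log2 change of -0.23 ± 0.18 (adjusted p = 0.455, limma). H3f3b probe set 1430357_at, dimmer than the median probe set, read 15.2, 13.3 and 18.2 against 15.3, 2.53 and 8.20. The groups overlapped through 5AC replicate 1, the log2 change of -1.02 ± 0.58 did not pass (adjusted p = 0.315, limma), and it was -0.39 with 16 added. At these levels a change could not be told from the spread, and nothing is shown about the RNA abundance of either H3.3 gene by itself. A further 5 probe sets, at 1569 to 5189, list both H3f3a and H3f3b with 4 further symbols and cannot be given to either gene. Of these 5, 2 were lower in 5AC and 3 did not pass, beside 15.7% lower among all probe sets brighter than the median probe set. The paralogue difference H3f3a minus H3f3b changed by 0.79 ± 0.64, with overlapping groups (exact two-sided permutation p = 0.20). Over the fits that left out 1 array, the log2 change of H3f3b ran from -1.53 without 5AC replicate 1 to -0.43 without 5AC replicate 2. The change in the paralogue difference was 1.16 and 0.16 without the same arrays, and 0.22 with 16 added.

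Macroh2a1, the main macroH2A gene, was lower in 5AC. Its probe set 1424572_a_at read 671.2, 684.6 and 712.8 untreated and 452.7, 475.3 and 522.6 in 5AC. The groups did not overlap, though the treated arrays were more spread than the untreated ones, and the mean went from 689.5 ± 21.2 to 483.5 ± 35.6, 29.9% lower. The log2 change of -0.51 ± 0.08 passed narrowly (adjusted p = 0.0162, limma), and the call was lost on leaving out any single array other than 5AC replicate 3 (adjusted p = 0.0323 to 0.0629 over the 6), while the change stayed between -0.57 and -0.47. The suffix of this probe set marks probes shared by several transcripts of the gene, so the splice forms macroH2A1.1 and macroH2A1.2 were not told apart.

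Macroh2a2 was dim and did not pass. The suffix of its only probe set marks probes that may also bind similar sequences, which limits the comparison with Macroh2a1 as well. Probe set 1426363_x_at read 46.2, 37.9 and 35.3 untreated and 39.0, 35.7 and 34.7 in 5AC, values that overlap, with a log2 change of -0.12 ± 0.12 (adjusted p = 0.605, limma). The within-array difference Macroh2a1 minus Macroh2a2 went from 4.09 ± 0.24 to 3.69 ± 0.19, a change of -0.40 ± 0.17, and its groups overlapped (exact two-sided permutation p = 0.20). A difference in response between the macroH2A genes was therefore not shown.

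**Figure D3:**
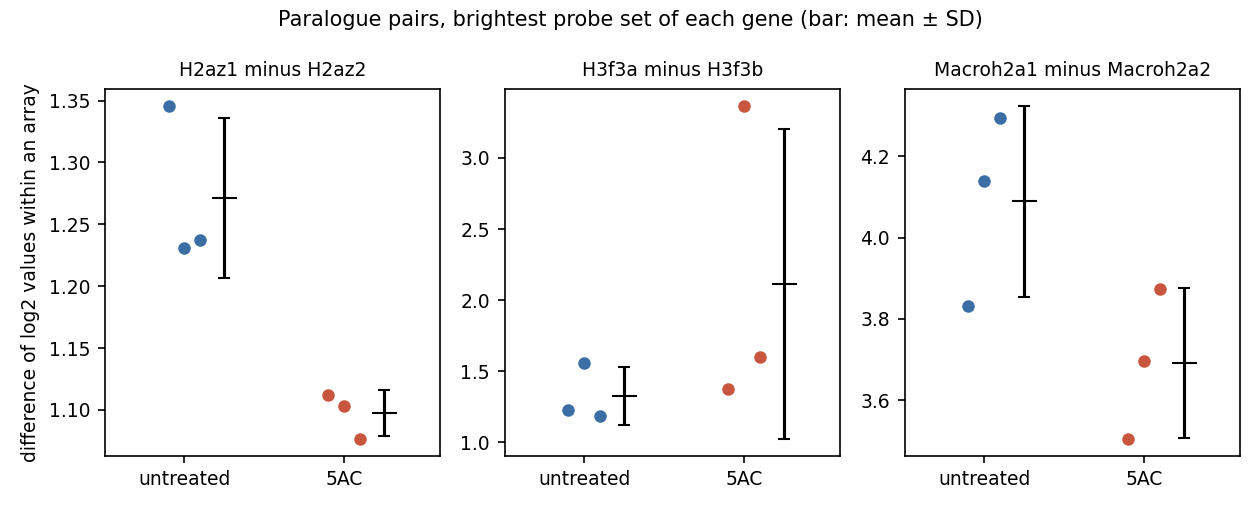
Within-array difference of log2 values between paralogues on the 3 untreated (blue) and 3 5AC (red) arrays, with mean ± SD; the axes are not from 0 and differ between panels. The groups are separate for H2az1 minus H2az2 and overlap for the H3.3 and macroH2A pairs.

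Among other histone variants, Cenpa, the H3 variant of centromeres, went from 979.5 ± 17.8 to 426.6 ± 15.8, a log2 change of -1.20 ± 0.07 (adjusted p = 0.00163, limma), close in size to that of H2ax. H2aj, a replication-independent H2A gene, moved the other way, from 266.9 ± 8.74 to 353.7 ± 14.6 (log2 change 0.40 ± 0.07, adjusted p = 0.0206, limma), a call lost whichever single array was left out (adjusted p = 0.0547 to 0.0740). Of the 10 measured genes of this list, 1 rose, 1 fell and 8 did not pass, and the median log2 change was -0.23. For comparison, taking the brightest probe set of each of 18193 genes, 11.6% were higher and 10.8% lower, with a median of 0.01.

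Of 23 genes for the deposition and eviction of variants, 3 rose, 6 fell and 14 did not pass, with a median log2 change of 0.02, beside 11.6% of all genes higher and 10.8% lower. Oip5 and Mis18a, both of the complex that licenses centromeres for CENP-A, went from 73.6 ± 6.99 to 44.5 ± 0.65 and from 415.8 ± 12.7 to 289.8 ± 3.74 (adjusted p = 0.00901 and 0.00829, limma). Dmap1, a subunit of the SRCAP and EP400 complexes, rose from 157.7 ± 12.4 to 229.5 ± 9.94, a call that held on leaving out untreated replicate 3 but was lost without any other single array (adjusted p up to 0.0641). With 1 array left out these counts shrank, to 2 lower without 5AC replicate 2, to 3 lower without untreated replicate 1 or 2 or 5AC replicate 1 or 3, and to 0 or 1 higher without any of these 5 arrays. Further genes of the list are named after their values were seen. Among the H3.3 factors, Ubn1 and Ubn2 of the HIRA complex rose (log2 changes 0.44 and 0.44, adjusted p = 0.0216 and 0.0196, limma), Atrx, the chaperone gene Dek and the remodeller gene Chd1 fell (-0.42, -0.47 and -0.48, adjusted p = 0.0354, 0.0118 and 0.0478, limma), and Hira and Daxx did not pass, at 0.08 and 0.15. Among the H2A.Z factors, Yeats4 fell (-0.36, adjusted p = 0.0207, limma), and the remodeller genes Srcap and Ep400 did not pass, at 0.20 and 0.25.

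General histone chaperones were lower in 6 of 13 cases, higher in 1 and not past the threshold in 6, with a median log2 change of -0.23. Of all genes, 10.8% were lower and 11.6% higher. Asf1b, the ASF1 form of dividing cells, went from 549.6 ± 14.5 to 253.8 ± 14.9 (log2 change -1.11 ± 0.08, adjusted p = 0.00222, limma), and Chaf1b, a subunit of the replication-coupled assembly factor CAF-1, from 298.0 ± 2.63 to 191.6 ± 11.3. Supt6, an elongation factor that also binds histones, rose from 89.9 ± 16.1 to 194.6 ± 20.3, a call lost without 5AC replicate 1 (adjusted p = 0.0523). Only 2 chaperone genes were lower without untreated replicate 2 or without 5AC replicate 2.

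Of the 56 genes listed for replication-coupled histones and their mRNA processing, 13 were measured. Of the rest, 32 stood only on probe sets with several symbols and 11 on no named probe set. Among the 13, 1 rose, 2 fell and 10 did not pass, with a median log2 change of -0.17. Over all genes 11.6% were higher and 10.8% lower. The 13 include processing genes such as Npat, Casp8ap2 and Lsm10, and 4 of them were no brighter than the median probe set. Most of the listed histone genes were thus not read by a probe set of their own, and the counts do not show how their mRNAs changed. Slbp, which binds the stem-loop of these mRNAs, fell from 864.8 ± 23.6 to 705.6 ± 8.34. H1f4, a linker histone gene, was dim, at 10.6 ± 4.17 and 2.60 ± 1.01, so its log2 change of -1.67 was -0.51 with 16 added, and H2ac19, read by a probe set that may also bind similar sequences, went from 66.5 ± 6.01 to 111.4 ± 14.6. The calls of Slbp (adjusted p = 0.0793 to 0.123) and H1f4 (0.0531 to 0.0871) were lost whichever single array was left out, and that of H2ac19 without untreated replicate 1 or 2 or 5AC replicate 2 or 3 (up to 0.0776).

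Of 12 genes for enzymes and readers of H2A.X phosphorylation 1 rose, 3 fell and 8 did not pass, with a median log2 change of 0.05, beside 11.6% of all genes higher and 10.8% lower. The phosphatase genes Eya1 and Eya3, which act on the terminal tyrosine of H2A.X, went opposite ways, Eya1 from 214.2 ± 3.78 to 113.8 ± 9.97 and Eya3 from 169.1 ± 10.7 to 238.8 ± 1.40. Brca1, which is recruited to breaks downstream of phosphorylated H2A.X, went from 131.2 ± 4.14 to 101.6 ± 3.43. The call of Brca1 was lost whichever single array was left out (adjusted p = 0.0545 to 0.0842), leaving 1 lower gene each time, and that of Eya3 without any one of the 5AC arrays (up to 0.0573). Of genes named after their values were seen, the checkpoint kinase gene Chek2 fell (log2 change -0.30, adjusted p = 0.0343, limma). Its call too was lost whichever single array was left out. Also named after their values were seen, the H2A.X kinase genes Atm, Atr and Prkdc and the reader gene Mdc1 did not pass, at 0.17, 0.12, 0.36 and -0.02.

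Genes of the cell cycle and of differentiation moved on the same arrays as H2ax and the H2A.Z genes. For comparison, 10.8% of all genes were lower and 11.6% higher. Of 19 S phase and mitosis genes 17 fell, 0 rose and 2 did not pass, with a median log2 change of -0.54, and their summed intensity was 25101 to 25846 untreated and 16608 to 17914 in 5AC; 10 fell without untreated replicate 1, and 11 without untreated replicate 2, 5AC replicate 1 or 5AC replicate 2. Thymidine kinase Tk1 went from 857.0 ± 19.8 to 279.2 ± 28.5, cyclin gene Ccnb2 from 850.5 ± 7.84 to 324.5 ± 28.7 and the mitotic kinase gene Aurkb from 379.0 ± 9.94 to 203.3 ± 16.4. Of 16 genes of terminal muscle differentiation 14 rose, 0 fell and 2 did not pass, with a median log2 change of 1.59 and a summed intensity of 3860 to 4779 untreated and 11525 to 12383 in 5AC. Examples are troponin T gene Tnnt3, from 32.0 ± 8.50 to 187.0 ± 9.49, embryonic myosin Myh3, from 51.6 ± 7.67 to 301.7 ± 30.1, and cardiac actin Actc1, from 323.6 ± 64.1 to 1716 ± 84.4. The list and its sum also hold the CDK inhibitor genes Cdkn1a and Cdkn1c, named after their values were seen. Cdkn1a is among the 14 and went from 1294 ± 70.8 to 2427 ± 48.5, and Cdkn1c did not pass. At an unadjusted p under 0.05 there were likewise 0 S phase and mitosis genes higher and 0 differentiation genes lower (limma). The part of either list's change in the changes of the variant genes was not tested.

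**Figure D4:**
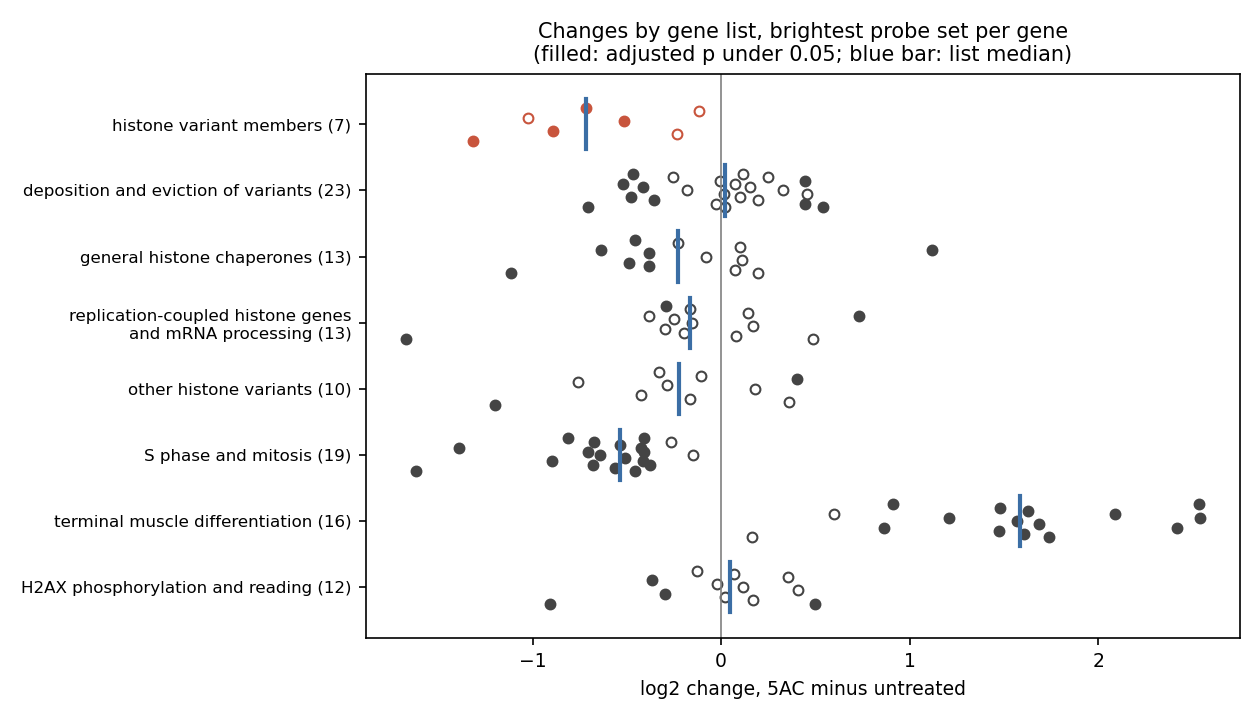
Log2 change, 5AC minus untreated, of the brightest probe set of each gene, by list; filled points have adjusted p under 0.05, blue bars are list medians and numbers in brackets are genes measured. The variant genes (red) all lie left of 0, the S phase and mitosis genes around a median of -0.54, and the muscle differentiation genes right of 0.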

How the data were processed

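The values are linear probe-set intensities as the authors deposited them in 1 table, with a column for each array. Per the submitters' processing notes GCOS 1.4 and R 2.4.1 were used, for steps that are not named. How probes were summarized and arrays scaled is not given in the sources used here, and detection calls were not used. Of 45101 probe sets, 64 controls were left out; the annotation gave 1 symbol to 34945, several to 932 and none to 9160.

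Values below 0 (2.42% to 2.60% per array, none in the 9 probe sets of the variant genes) were set to 0, and log2(intensity + 1) was fitted with limma 3.58.1 (lmFit, eBayes; R 4.3.3), 5AC minus untreated, two-sided, adjusted over all probe sets, threshold 0.05. The paralogue comparison used an exact permutation test. The fit was tested on simulated data with independent noise for each array, which cannot check for a culture or day shared between arrays. The members and gene lists were chosen with earlier results of these data known. Named were all member probe sets, up to 3 genes per list with the largest change past the threshold, the 3 line markers and the 3 genes most like H2ax; exceptions are marked. Promoters were searched with Python 3.11.15. Alternatives were a replicate block, an offset of 16, median centring, quantile normalization, leaving out dim probe sets, trend, robust and array-weighted fits, 1 probe set per gene, a threshold of 0.01 and leaving out each array.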

Additional observations from a re-analysis of the deposited data

How the results depend on the processing

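The lower calls of H2ax, both H2az1 and both H2az2 probe sets held under every alternative run except the replicate block (the fit with 1 probe set per gene held only the brighter of each H2A.Z gene). With it, log2 changes kept their values (H2ax -1.32, H2az1 -0.89 and -0.70, H2az2 -0.72 and -1.09, Macroh2a1 -0.51) but adjusted p was 0.0548 to 0.0772, and 0 of the 45037 probe sets, so 0 variant probe sets and 0 context genes, passed in limma (5906 higher and 6154 lower at an unadjusted p under 0.05). Deviations of same-numbered arrays correlated at -0.06, 0.03 and 0.01, against -0.09 to 0.08 for arrays of unlike number. With so few arrays this cannot show whether same-numbered arrays shared a culture or day, which the labels do not state. The result with the block therefore stands as a limit of the calls. At a threshold of 0.01 Macroh2a1 (-0.51) was lost, 1265 probe sets were higher and 1554 lower, and 29 context genes passed; with 1 probe set per gene 2517 were lower, of fewer tested.

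Over the 6 fits that leave out 1 array, 1681 to 2859 probe sets were higher, 2058 to 2592 lower, and 32 to 44 context genes passed. Macroh2a1 ranged from -0.57 to -0.47, and 5 or 6 variant probe sets were lower. No change of a variant probe set or paralogue pair reversed. Levels near those of H3f3b and Macroh2a2 limit what could be seen.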

Other observations

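Probe sets that list a variant gene together with other symbols cannot be given to 1 gene, and their values stand here as such. For comparison, 15.7% of all probe sets brighter than the median probe set were lower in 5AC. Both probe sets listing H2az1 with Gm8203 were lower in 5AC, 1416415_a_at going from 6202 ± 82.0 to 4482 ± 61.2 (mean ± SD, n = 3 each; log2 change -0.47 ± 0.06, SE, adjusted p = 0.00947 by limma) and 1456032_x_at from 1461 ± 27.7 to 1079 ± 56.1 (-0.44 ± 0.07, adjusted p = 0.0172 by limma). Both changes were smaller in size than those of the probe sets with H2az1 as the only symbol, -0.89 and -0.70; this difference was not tested.

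The 5 probe sets listing H3f3a, H3f3b and 4 further symbols split, beside the same 15.7% lower among the brighter probe sets. The probe sets 1423263_at and 1423262_a_at, at 2251 ± 30.1 and 2311 ± 55.9 untreated, were lower, with log2 changes of -0.50 ± 0.06 and -0.35 ± 0.06 (adjusted p = 0.00836 and 0.0239, limma). The 3 brighter ones, with untreated means of 4329, 4733 and 5078, did not pass, at -0.07, -0.02 and -0.06. The probe set listing Macroh2a2 with Macroh2a3 went from 86.3 ± 7.41 to 93.8 ± 3.44 and did not pass (adjusted p = 0.451, limma).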
